A study of Homo sapiens with 4 samples.

Results

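The interferon-stimulated genes described here are 44 genes chosen by a fixed list of gene names, and all 44 were found among the 58051 gene identifiers of both deposited tables. The list names antiviral effectors, RNA sensors and transcription factors that cells switch on after interferon. The choice rule uses names and no measured value, though the list was drawn up with earlier results of these data known. The study addressed lamin A/C and EZH2 in the epithelial-to-mesenchymal transition. It used MCF10A, an immortalised, non-tumorigenic human mammary epithelial line, and poly(A) RNA-seq. The siLMNA group holds 2 libraries from cells transfected with siRNA against LMNA, the gene of lamins A and C. The siLacZ group holds 2 libraries from cells transfected with siRNA against LacZ, a bacterial gene that human cells lack, and the labels give it as wild type. Both groups received 50 nM siRNA with a lipid carrier, had their medium changed at 6 h and were collected at 48 h. All cells are thus 1 line, transfected, and neither an untransfected nor an interferon-treated group was analysed here. Nothing in the labels says that the 2 libraries of 1 group were grown as separate cultures, so the p-values reflect only the spread between these libraries, which may be technical.

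Type I and type III interferons bind cell-surface receptors that activate the kinases JAK1 and TYK2. These phosphorylate STAT proteins, and STAT2 with IRF9 enters the complex ISGF3, which binds the interferon-stimulated response element, ISRE, in the promoters of responding genes. Interferon gamma acts mainly through the gamma-activated site, GAS, and through IRF1. Epithelial cells make little interferon at rest, yet many keep a low, constant level of these genes, part of which depends on unphosphorylated factors or on IRF1.

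The 4 libraries held between 42.8 and 46.2 x 1e6 counts, so 3 counts, the limit taken for a gene at 0, stood at 0.0649 to 0.0701 counts per 1e6 counts (CPM). Among gene counts of 1 to 20, 68.5% to 70.02% were even, against 50.2% to 50.8% of counts above 100. LMNA had 61.1 and 58.1 CPM in siLMNA cells, against 480 and 524 CPM in siLacZ cells, a log2 fold change of -3.07 (SE 0.077, edgeR adjusted p = 2.98e-15). Of 27 cell type markers, the 7 of basal mammary epithelium summed to 18203 to 19856 CPM in siLMNA and 14797 to 15556 CPM in siLacZ libraries. They did not move alike, as 5 rose, KRT14 fell and KRT5 did not pass. KRT17 had 7202 and 6387 CPM in siLMNA cells, against 1721 and 1674 CPM in siLacZ cells. KRT14 had 2555 and 2513 CPM in siLMNA cells, against 4705 and 4723 CPM in siLacZ cells. The leukocyte marker CD3E and the plasmacytoid dendritic cell markers CLEC4C and LILRA4 had 0 counts in all 4 libraries, and PTPRC had 1 count in 1 library. Other markers of these lists were present: CD14 had 33.7 and 27.8 CPM in siLMNA cells, against 25.2 and 25.6 CPM in siLacZ cells, and rose (edgeR adjusted p = 0.0207), and IL3RA had 4.05 and 3.14 CPM in siLMNA and 4.05 and 2.92 CPM in siLacZ cells. LYZ had 9 and 2 counts in siLMNA and 0 and 1 counts in siLacZ libraries. CD68 had 2 counts in siLMNA 2 and 0 elsewhere. Of the luminal breast markers ESR1 rose (edgeR adjusted p = 0.0487), KRT19 and GATA3 did not pass, and PGR had 0 counts. Of the endothelial markers PECAM1 rose (edgeR adjusted p = 0.0332), CDH5 did not pass, and VWF was too low to test. The ESR1 and PECAM1 calls did not hold with DESeq2. The 4 fibroblast markers summed to 765 and 766 CPM in siLMNA cells, against 175 and 177 CPM in siLacZ cells. All 4 rose (PDGFRA with 22 and 10 counts in siLMNA and 2 and 1 counts in siLacZ libraries), and their part in the members' results was not tested.

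The promoters of the 2 members with the largest rise and the 2 with the largest fall are printed to show where exact matches to 2 motifs lie. They were taken among members that passed the test, averaged at least 5 CPM and had a RefSeq promoter. Each runs from 250 bases before to 50 after the RefSeq start on GRCh38.p14, 5′ to 3′ on the gene's strand. Capitals mark a match to the ISRE core, which is GAAA, any 2 bases and GAAA again (TTTC, any 2 bases and TTTC when it lies on the other strand), or to the GAS TTCNNNGAA, which reads the same on both strands. The genes are IFI6 (minus strand, chr1:27672143-27672442), SAMD9L (minus strand, chr7:93148336-93148635), OAS1 (plus strand, chr12:112906712-112907011) and OAS3 (plus strand, chr12:112938224-112938523).
IFI6: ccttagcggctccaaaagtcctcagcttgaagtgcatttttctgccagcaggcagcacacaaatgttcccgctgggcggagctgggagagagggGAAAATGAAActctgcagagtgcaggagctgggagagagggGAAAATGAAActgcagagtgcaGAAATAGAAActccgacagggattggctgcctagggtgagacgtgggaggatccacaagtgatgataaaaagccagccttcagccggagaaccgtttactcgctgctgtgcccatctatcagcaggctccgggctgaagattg
SAMD9L: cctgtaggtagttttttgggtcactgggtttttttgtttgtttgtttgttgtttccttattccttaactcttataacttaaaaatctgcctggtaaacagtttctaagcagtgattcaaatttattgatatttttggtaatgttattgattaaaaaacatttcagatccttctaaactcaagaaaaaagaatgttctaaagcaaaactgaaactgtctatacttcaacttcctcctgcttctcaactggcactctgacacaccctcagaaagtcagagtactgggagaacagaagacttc
OAS1: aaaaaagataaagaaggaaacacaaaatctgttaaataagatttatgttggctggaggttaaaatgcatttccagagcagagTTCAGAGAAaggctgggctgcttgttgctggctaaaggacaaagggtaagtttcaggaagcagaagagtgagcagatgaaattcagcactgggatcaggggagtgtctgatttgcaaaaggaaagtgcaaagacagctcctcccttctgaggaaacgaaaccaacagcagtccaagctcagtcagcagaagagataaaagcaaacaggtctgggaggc
OAS3: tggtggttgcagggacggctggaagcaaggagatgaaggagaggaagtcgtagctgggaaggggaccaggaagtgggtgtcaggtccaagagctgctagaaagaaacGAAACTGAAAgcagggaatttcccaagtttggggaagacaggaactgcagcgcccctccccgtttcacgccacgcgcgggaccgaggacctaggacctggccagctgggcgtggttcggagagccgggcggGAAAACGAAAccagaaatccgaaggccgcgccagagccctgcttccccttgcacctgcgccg

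The IFI6 window held 3 ISRE cores, beginning at -156, -115 and -93 from the start, and OAS3 held 2, at -143 and -12. OAS1 held no exact match to the ISRE core and 1 GAS match, at -168, and SAMD9L held neither. Variants of the core were not searched, so these windows may still carry a response element. The OAS1 window holds gaaacgaaa, with 1 base between the repeats, which was not counted. IFI6 and SAMD9L rose while OAS1 and OAS3 fell, so each direction has 1 printed window with the ISRE core and 1 without it. Over the whole list 35 members had a RefSeq promoter, in 47 windows. At least 1 ISRE core was found in 24 of the 35 (68.6%), against 1195 of 27305 genes of all kinds (4.38%). A GAS match was found in 12 members (34.3%), against 9.38% of all genes. In these windows 6 of the 15 GAS matches overlapped an ISRE match. A match is a run of letters and not a measured binding site, and DHX58, OAS2, OASL, IFIT2, MX2, TRIM22, IFITM2, USP18 and IRF7 were not searched.

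The interferon-stimulated genes differed between siLMNA and siLacZ cells in both directions. Of 43 members that passed the low-count filter, 18 rose and 10 fell in siLMNA relative to siLacZ cells, and 15 did not pass the test (edgeR quasi-likelihood, Benjamini-Hochberg adjusted p under 0.05 over all 18540 tested genes). The largest rises were in IFI6, ISG20, SAMD9L, SP110 and IRF1, with log2 fold changes of 1.47, 1.28, 1.20, 1.16 and 1.05. The largest falls were in OAS1, OAS2 and IFITM2, with log2 fold changes of -1.45, -1.38 and -1.01, followed by OAS3 at -0.91 and IFI44L at -0.89. In bulk RNA fewer cells expressing a gene and less of its RNA per cell cannot be told apart.

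Across all tested genes 54.3% were called, 26.5% as higher and 27.8% as lower in siLMNA cells. The members stood at 65.1% called, 41.9% higher and 23.3% lower. Their median log2 fold change was 0.26, against -0.01 over all tested genes. The size of change was close to that of the transcriptome: the median absolute log2 fold change was 0.49 among members and 0.46 among all genes, and 20.9% of members and 21.1% of all genes moved by at least 1 on the log2 scale. In a test against a minimum change of 1.5-fold, 5 members rose (11.6% of members, against 11.4% of all genes) and 5 fell (11.6%, against 9.36%), where 20.7% of all genes passed in either direction. Without siLacZ 1 only 11 members rose, and without siLacZ 2 only 5 fell. The counts over all genes were lower too, with 3325 rising without siLacZ 1 and 3121 falling without siLacZ 2. Through every alternative except the minimum change, 11 members stayed called as higher (IFIT2, TRIM22, ISG20, SAMD9L, ISG15, STAT2, IRF1, PARP9, DTX3L, IFI6 and SP110) and 5 as lower (IFIH1, OAS1, OAS3, IFITM2 and IFI44L). The 2 libraries of each group did not overlap in 35 of the 43 members, against 76.0% of all tested genes.

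**Figure D1:**
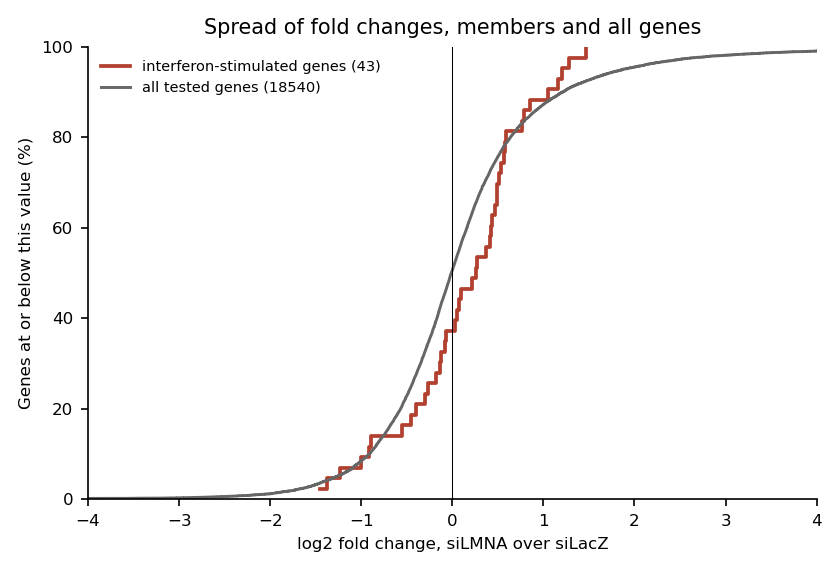
Distribution of log2 fold changes, siLMNA over siLacZ, for the 43 tested interferon-stimulated genes and for all 18540 tested genes. The members lie on both sides of 0, with a median of 0.26 against -0.01 for all genes.

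**Figure D2:**
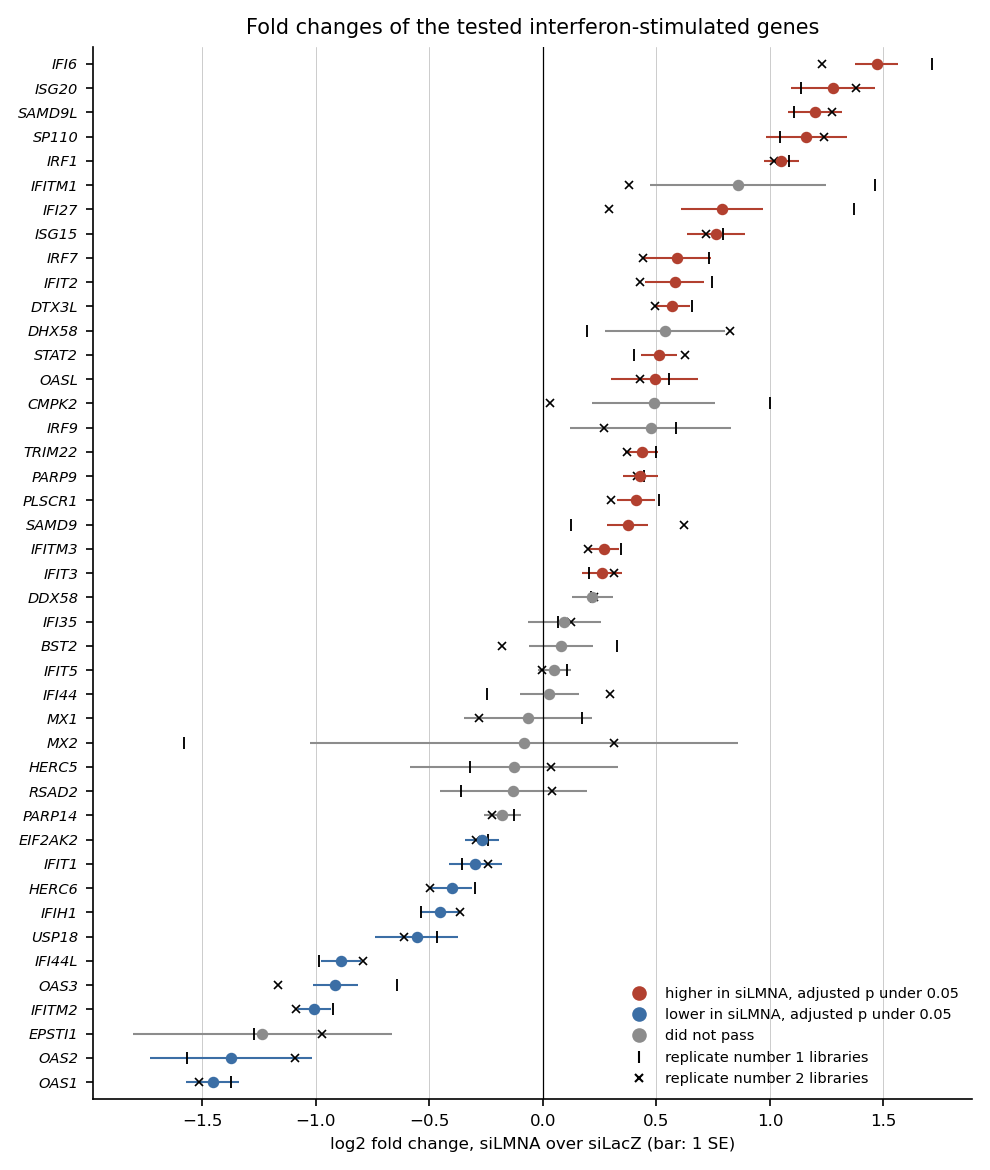
Log2 fold change, siLMNA over siLacZ, of each tested member with its standard error, ordered by fold change and coloured by the test. The OAS genes reach -1.45 with OASL on the other side of 0, and the transcription factors lie above 0.

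Of the 4 transcription factors that drive the response, STAT2, IRF1 and IRF7 rose and IRF9 did not pass, against 26.5% of all tested genes that rose. STAT2, the ISGF3 subunit used by type I and III interferon, had 71.9 and 73.3 CPM in siLMNA cells, against 54.5 and 47.5 CPM in siLacZ cells. Both siLMNA libraries lay above both siLacZ libraries, with a log2 fold change of 0.51 (SE 0.079, edgeR adjusted p = 3.1e-05). IRF1, a factor that acts on interferon promoters and on the gamma response, had 55.9 and 56.0 CPM in siLMNA cells, against 26.3 and 27.7 CPM in siLacZ cells. It rose 2.07-fold (log2 1.05, SE 0.077, edgeR adjusted p = 3.67e-09), and the libraries of a group lay close together. C5orf56, whose exons lie over 22.0% of the IRF1 exon bases on the other strand, had 137 and 139 counts in siLMNA against 114 and 100 counts in siLacZ libraries, far below the 1177 to 2407 counts of IRF1. IRF7, the amplifier of interferon alpha transcription, had 7.23 and 6.65 CPM in siLMNA cells, against 4.34 and 4.89 CPM in siLacZ cells, a log2 fold change of 0.59 (SE 0.15, edgeR adjusted p = 0.00318). Its call was lost without siLacZ 1 (0.49, edgeR adjusted p = 0.0647). IRF9, the DNA-binding partner in ISGF3, was low, at 1.57 and 0.977 CPM in siLMNA and 1.03 and 0.804 CPM in siLacZ cells. Its log2 fold change of 0.47 (SE 0.35) did not pass (edgeR adjusted p = 0.277), and 48.4% of its exon bases lie within AL136295.5 on the same strand, so its counts are uncertain.

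The oligoadenylate synthetases moved apart, with 3 of 4 falling and OASL rising, where 27.8% of all tested genes fell and 26.5% rose. OAS1 to OAS3 make the messenger that activates RNase L on double-stranded RNA, while OASL lacks that activity and enhances RIG-I signalling. OAS1 had 7.82 and 8.54 CPM in siLMNA cells, against 20.3 and 24.5 CPM in siLacZ cells, a log2 fold change of -1.45 (SE 0.12, edgeR adjusted p = 1.13e-08). OAS3 had 60.9 and 55.0 CPM in siLMNA cells, against 95.1 and 123 CPM in siLacZ cells, a log2 fold change of -0.91 (SE 0.10, edgeR adjusted p = 5.49e-07). In both genes every siLMNA library lay below every siLacZ library. OAS2 was scarce, with 0.468 and 0.652 CPM in siLMNA and 1.48 and 1.44 CPM in siLacZ cells. Its log2 fold change was -1.38 (SE 0.36, edgeR adjusted p = 0.00347), and it did not pass without siLacZ 1 or without siLacZ 2 (edgeR adjusted p = 0.0565 and 0.0658). OASL had 3.77 and 4.14 CPM in siLMNA cells, against 2.55 and 3.07 CPM in siLacZ cells, a log2 fold change of 0.49 (SE 0.19, edgeR adjusted p = 0.0396). The OASL call did not hold with DESeq2 (adjusted p = 0.105) or when any 1 library was left out, with edgeR adjusted p between 0.0553 and 0.186. OAS1, OAS3 and OAS2 are neighbours on chromosome 12, between 112906777 and 113011723 in GENCODE 29 on GRCh38, and OASL lies apart on the same chromosome at 121019111 to 121039242.

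Among the sensors of viral RNA none rose, against 26.5% of all tested genes, and 2 of 4 fell, against 27.8%. The share called in either direction (50.0%) was near the 54.3% of all tested genes. IFIH1, which encodes MDA5, the sensor of long double-stranded RNA, had 20.0 and 21.1 CPM in siLMNA cells, against 29.04 and 27.2 CPM in siLacZ cells. The groups did not overlap, with a log2 fold change of -0.45 (SE 0.088, edgeR adjusted p = 0.000306). EIF2AK2, which encodes PKR, a kinase that halts translation on double-stranded RNA, had 103 and 111 CPM in siLMNA cells, against 122 and 136 CPM in siLacZ cells (log2 fold change -0.27, SE 0.075, edgeR adjusted p = 0.00598). Without siLacZ 2 it did not pass (-0.17, edgeR adjusted p = 0.188). DDX58, which encodes RIG-I, had 22.6 and 23.8 CPM in siLMNA cells, against 19.6 and 20.4 CPM in siLacZ cells. Its log2 fold change of 0.22 (SE 0.090) stood at the threshold, with edgeR adjusted p = 0.0503 under TMM scaling and 0.0400 under RLE scaling. DHX58, which encodes LGP2, a regulator of the other two sensors, had 1.87 and 2.58 CPM in siLMNA and 1.63 and 1.44 CPM in siLacZ cells (log2 fold change 0.54, SE 0.26, edgeR adjusted p = 0.0971), and passed without siLMNA 1 (0.75, edgeR adjusted p = 0.0461).

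The IFIT genes, which encode antiviral effectors, form a cluster on chromosome 10, and 2 rose, 1 fell and 1 did not pass. Among all tested genes 26.5% rose and 27.8% fell. IFIT2 had 11.1 and 10.8 CPM in siLMNA cells, against 6.62 and 7.997 CPM in siLacZ cells, a log2 fold change of 0.58 (SE 0.13, edgeR adjusted p = 0.00104). IFIT3 had 24.7 and 25.1 CPM in siLMNA cells, against 21.5 and 20.2 CPM in siLacZ cells (log2 fold change 0.26, SE 0.088, edgeR adjusted p = 0.0196). IFIT1 had 10.1 and 12.1 CPM in siLMNA cells, against 13.0 and 14.3 CPM in siLacZ cells (log2 fold change -0.30, SE 0.12, edgeR adjusted p = 0.0436). IFIT2 kept its call in every alternative but the minimum change of 1.5-fold (edgeR adjusted p = 0.666). The IFIT3 call was lost there too, without the low-count filter and when any 1 library was left out. The IFIT1 call was lost in 8 alternatives, among them RLE scaling, upper-quartile scaling and DESeq2 (adjusted p = 0.0631, 0.118 and 0.138). Leaving out siLMNA 1, siLacZ 1 or siLacZ 2 also ended the IFIT1 call (edgeR adjusted p = 0.344, 0.139 and 0.374). IFIT5 did not pass (edgeR adjusted p = 0.596).

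Of 12 restriction factors, proteins that block steps of viral entry or replication, 5 rose and 1 fell. Those rising made up 41.7%, against 26.5% of all tested genes, and those falling 8.33%, against 27.8%. The share called was 50.0%, near the 54.3% of all tested genes. The 3 IFITM genes encode membrane proteins that hinder fusion of viruses with the cell, and IFITM2 and IFITM3 went opposite ways. IFITM2 had 83.9 and 80.6 CPM in siLMNA cells, against 159 and 171 CPM in siLacZ cells, a log2 fold change of -1.01 (SE 0.072, edgeR adjusted p = 2.54e-09). IFITM3 had 304 and 291 CPM in siLMNA cells, against 240 and 254 CPM in siLacZ cells, a log2 fold change of 0.27 (SE 0.068, edgeR adjusted p = 0.00286), which did not pass without siLacZ 1 (0.22, edgeR adjusted p = 0.064). IFITM1 had 1.31 and 1.28 CPM in siLMNA and 0.448 and 0.973 CPM in siLacZ cells. Both siLMNA libraries lay above both siLacZ libraries, yet the log2 fold change of 0.86 (SE 0.39) did not pass (edgeR adjusted p = 0.0719). It passed with the replicate block (0.92, edgeR adjusted p = 0.0447) and without siLacZ 2 (1.55, edgeR adjusted p = 0.041). These genes share sequence: 32.0% of the 50-base words in IFITM1 exons, 34.1% in IFITM2 and 17.4% in IFITM3 occur in other genes, and IFITM1 and IFITM2 overlap by 351 annotated exon bases, so the split of reads between them is uncertain.

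ISG20, an exonuclease that degrades RNA, had 5.08 and 5.79 CPM in siLMNA cells, against 2.28 and 2.20 CPM in siLacZ cells, a log2 fold change of 1.28 (SE 0.18, edgeR adjusted p = 1.27e-05). SAMD9L, a cytosolic antiviral and growth-restraining protein, had 14.9 and 17.3 CPM in siLMNA cells, against 6.91 and 7.13 CPM in siLacZ cells, a log2 fold change of 1.20 (SE 0.12, edgeR adjusted p = 1.77e-07). Both exceeded 2-fold with well separated groups, and both passed the test against a minimum 1.5-fold change (edgeR adjusted p = 0.00117 and 7.82e-05). SAMD9, the paralogue beside SAMD9L on chromosome 7, had 114 and 136 CPM in siLMNA cells, against 104 and 88.2 CPM in siLacZ cells. Its log2 fold change was 0.37 (SE 0.092, edgeR adjusted p = 0.00229), and without siLacZ 1 or siLacZ 2 it did not pass (edgeR adjusted p = 0.0718 and 0.229). TRIM22, a ubiquitin ligase with antiviral activity, had 68.9 and 65.4 CPM in siLMNA cells, against 48.7 and 50.6 CPM in siLacZ cells, a log2 fold change of 0.43 (SE 0.074, edgeR adjusted p = 7.62e-05). The classical antiviral genes MX1, MX2 and RSAD2, which encode dynamin-like GTPases and viperin, were at or under 1.73 CPM in every library and did not pass, nor did CMPK2 and the tetherin gene BST2.

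ISG15 is a ubiquitin-like protein that is attached to other proteins. HERC5 is a ligase that attaches it, and HERC6 is a relative of HERC5. USP18 removes ISG15 and dampens receptor signalling. ISG15 had 11.9 and 10.5 CPM in siLMNA cells, against 6.85 and 6.37 CPM in siLacZ cells, a log2 fold change of 0.76 (SE 0.13, edgeR adjusted p = 6.9e-05). USP18 had 4.17 and 5.35 CPM in siLMNA cells, against 5.77 and 8.21 CPM in siLacZ cells, a log2 fold change of -0.56 (SE 0.18, edgeR adjusted p = 0.0156). HERC6 had 20.9 and 19.9 CPM in siLMNA cells, against 25.7 and 28.1 CPM in siLacZ cells, a log2 fold change of -0.40 (SE 0.09, edgeR adjusted p = 0.00109). The modifier rose while its protease and HERC6 fell. The groups did not overlap in any of the 3, nor did they in 76.0% of all tested genes. The ISG15 call held in every alternative but the minimum change (edgeR adjusted p = 0.115). The USP18 call was lost without siLMNA 1, siLacZ 1 or siLacZ 2 (edgeR adjusted p = 0.0907, 0.0518 and 0.409), the HERC6 call without siLacZ 2 (edgeR adjusted p = 0.0681), and 23.4% of the USP18 50-base words occur elsewhere. HERC5 had 0.421 and 0.652 CPM in siLMNA and 0.537 and 0.635 CPM in siLacZ cells, with overlapping groups (log2 fold change -0.13, SE 0.46, edgeR adjusted p = 0.838).

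PARP9 and DTX3L, partners in an ADP-ribosylating ubiquitin ligase complex, both rose. DTX3L had 89.8 and 90.6 CPM in siLMNA cells, against 57.1 and 64.4 CPM in siLacZ cells, a log2 fold change of 0.57 (SE 0.077, edgeR adjusted p = 6.1e-06). PARP9 had 48.1 and 49.8 CPM in siLMNA cells, against 35.4 and 37.3 CPM in siLacZ cells, a log2 fold change of 0.43 (SE 0.077, edgeR adjusted p = 0.000129). The pair start beside each other on opposite strands of chromosome 3, with 217 exon bases in common, and the strand used in counting is not given in the sources used here. PARP14, a macrodomain ADP-ribosyltransferase further along the chromosome, had 69.8 and 76.2 CPM in siLMNA and 76.4 and 88.9 CPM in siLacZ cells (log2 fold change -0.18, SE 0.083, edgeR adjusted p = 0.0784). It passed without siLMNA 2 (-0.24, edgeR adjusted p = 0.0286).

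Of the other 9 members 4 rose, 1 fell and 3 did not pass, so 62.5% of the 8 tested were called, against 54.3% of all tested genes. Those rising made up 50.0%, against 26.5% of all tested genes, and those falling 12.5%, against 27.8%. IFI6, an interferon-inducible protein of internal membranes, had 85.3 and 72.9 CPM in siLMNA cells, against 26.0 and 31.1 CPM in siLacZ cells, the largest rise of the list at 2.77-fold (log2 1.47, SE 0.096, edgeR adjusted p = 7.91e-10). SP110, a nuclear body protein, had 5.17 and 6.00 CPM in siLMNA cells, against 2.48 and 2.52 CPM in siLacZ cells (log2 fold change 1.16, SE 0.18, edgeR adjusted p = 2.85e-05). An antisense gene, AC009950.1, covers 18.4% of the SP110 exon bases and had 53 and 60 counts in siLMNA against 28 and 24 counts in siLacZ libraries, so it too was higher in both siLMNA libraries. PLSCR1, a phospholipid scramblase, had 42.6 and 38.5 CPM in siLMNA cells, against 29.9 and 31.2 CPM in siLacZ cells (log2 fold change 0.41, SE 0.083, edgeR adjusted p = 0.000441), and did not pass without siLacZ 1 (edgeR adjusted p = 0.0623). IFI27, a small hydrophobic relative of IFI6, had 15.4 and 12.5 CPM in siLMNA cells, against 5.95 and 10.2 CPM in siLacZ cells, a log2 fold change of 0.79 (SE 0.18, edgeR adjusted p = 0.0013). The siLacZ libraries stood far apart here, and the call was lost with DESeq2 (adjusted p = 0.101) and without siLacZ 1 (0.44, edgeR adjusted p = 0.128). IFI44L had 19.1 and 20.9 CPM in siLMNA cells, against 37.8 and 36.2 CPM in siLacZ cells, a log2 fold change of -0.89 (SE 0.086, edgeR adjusted p = 1.24e-07). Its neighbour and paralogue IFI44 had overlapping groups and did not pass (edgeR adjusted p = 0.876), nor did IFI35 and EPSTI1. XAF1, a binding partner of the apoptosis inhibitor XIAP, had 0 and 2 counts in siLMNA and 2 and 2 counts in siLacZ libraries, all under the 3-count limit, and was not tested.

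**Figure D3:**
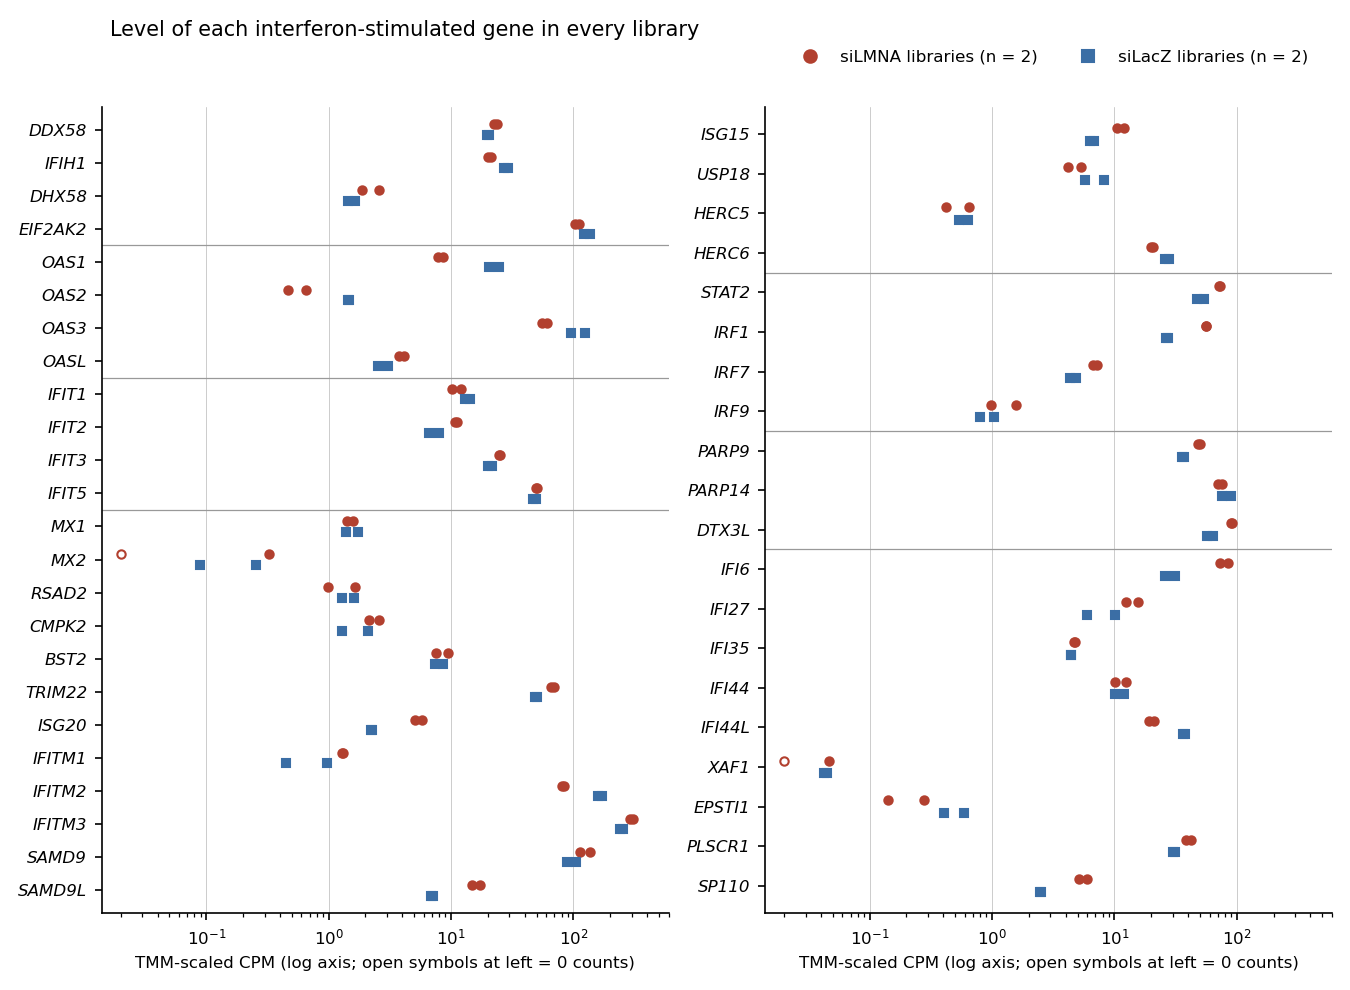
CPM of each interferon-stimulated gene in the 2 siLMNA and 2 siLacZ libraries on a log axis, grouped by role. IFITM3 lies at 240 CPM or more in all libraries while MX1, RSAD2, HERC5 and IRF9 lie under 2 CPM in both groups.

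Of the 15 members that did not pass, 7 averaged under 2 CPM in both groups, namely MX1, MX2, RSAD2, IFITM1, HERC5, IRF9 and EPSTI1, where the depth may not show a change, although OAS2 passed at such a level. The 15 log2 fold changes ran from -1.24 to 0.86, with edgeR adjusted p from 0.0503 to 0.949. Per length, as transcripts per 1e6 transcripts (TPM), the list was dominated by a few genes. IFITM3 averaged 965 TPM in siLMNA and 784 TPM in siLacZ cells, IFI6 399 TPM in siLMNA and 141 TPM in siLacZ cells, and IFITM2 233 TPM in siLMNA and 458 TPM in siLacZ cells. IFITM2 and IFITM3 together made up 49.3% of the members' summed TPM in siLMNA and 58.8% in siLacZ cells. The summed TPM of all members was 2448 and 2408 in siLMNA libraries, against 2043 and 2177 in siLacZ libraries. In siLMNA cells IFI6 stood above IFITM2 in the order of levels, and in siLacZ cells below it.

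Members with and without an exact match to the ISRE core in the promoter window changed in both directions. Those without a match, OAS1 among them, may hold variants of the core that were not searched. Of the 24 tested members with the core 10 rose, 5 fell and 9 did not pass, with a median log2 fold change of 0.06 and a range of -1.24 to 1.47. Of the 10 without it 4 rose, 2 fell and 4 did not pass, with a median of 0.48 and a range of -1.45 to 1.20. Among members with a promoter, the core stood in 10 of 14 that rose, 5 of 7 that fell and 9 of 13 that did not pass.

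**Figure D4:**
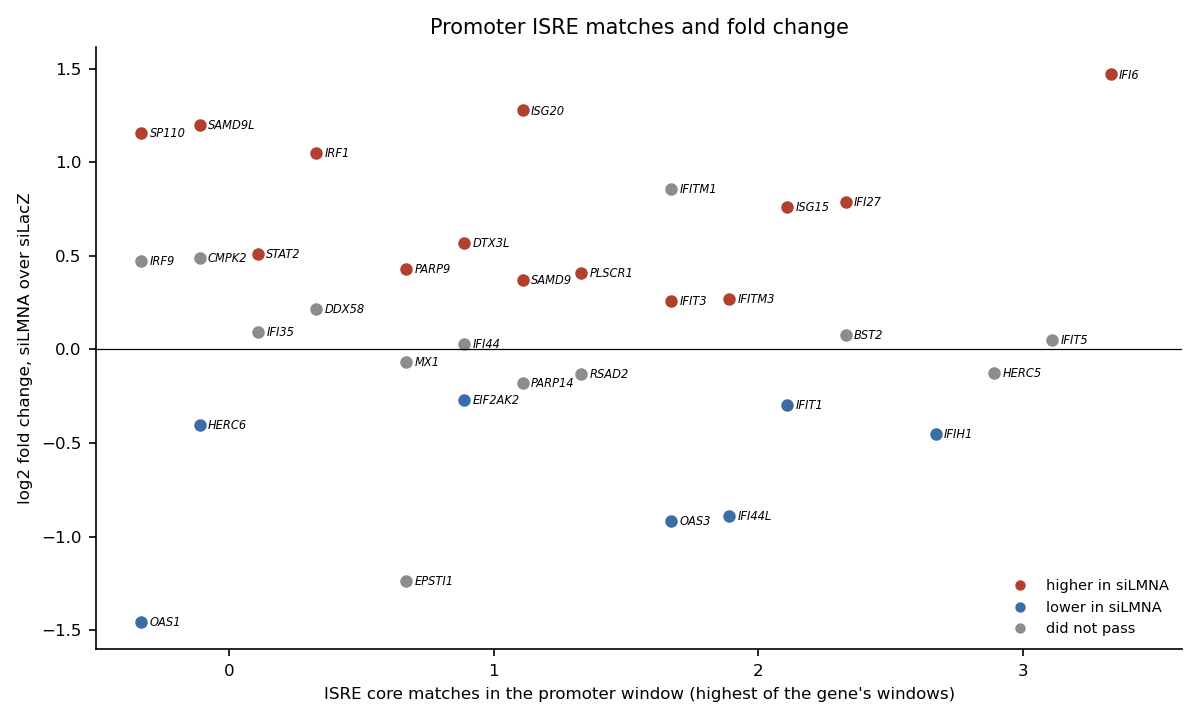
Log2 fold change, siLMNA over siLacZ, against the number of ISRE core matches in the promoter window of the 34 tested members with a RefSeq promoter. Points are spread sideways around each whole number, and both rises and falls occur from 0 to 3 matches.

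Beyond the members, 92 other genes of interferon signalling were listed by role, of which 79 were tested, 41 rose (51.9%, against 26.5% of all tested genes) and 19 fell (24.1%, against 27.8%). This list, like the members, was drawn up with earlier results of these data known. Of the 10 interferon genes listed, IFNE was tested and the other 9 were too low to pass the filter. IFNE, the epithelial interferon epsilon, had 77 and 116 counts in siLMNA and 72 and 44 counts in siLacZ libraries (log2 fold change 0.83, SE 0.31, edgeR adjusted p = 0.0317). Its call was lost with DESeq2 (adjusted p = 0.066), without the low-count filter, with the minimum change and without siLMNA 2 (0.51, edgeR adjusted p = 0.285), siLacZ 1 (1.26, edgeR adjusted p = 0.0793) or siLacZ 2 (0.50, edgeR adjusted p = 0.349). IFNA1 had 9 and 10 counts in siLMNA and 3 and 0 counts in siLacZ libraries, a ratio of 6.80 after scaling to library size (95% counting interval 2.00 to 35.9). IFNK, the keratinocyte interferon kappa, had 2 and 14 counts in siLMNA and 0 in both siLacZ libraries. With the limit of 3 counts put in place of 0 for the siLacZ group, the scaled ratio was 5.72. It leaves out the counting error of the siLMNA counts, so it is not a lower bound. That ratio rests on siLMNA 2, since the 2 counts of siLMNA 1 are under the limit. IFNB1 had 2 and 0 counts in siLMNA and 0 in both siLacZ libraries. IFNA2, IFNW1, IFNG, IFNL1, IFNL2 and IFNL3 had no count in any library. These intervals and limits cover counting error only and take each count as independent. Most low counts were even, and with the counts of each library halved and rounded up the IFNA1 interval was 1.14 to 50.4. IFNK then had 8 counts over the siLMNA and 0 over the siLacZ libraries.

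Of 11 receptor, kinase and STAT genes 6 rose (54.5%, against 26.5% of all tested genes) and 1 fell (9.09%, against 27.8%). IFNLR1, the ligand-binding chain of the type III receptor, had 22.0 and 23.5 CPM in siLMNA cells, against 5.41 and 6.52 CPM in siLacZ cells, a log2 fold change of 1.93 (SE 0.12, edgeR adjusted p = 3.39e-10). IL10RB, its partner chain, had 14.9 and 14.0 CPM in siLMNA cells, against 23.5 and 23.7 CPM in siLacZ cells, a log2 fold change of -0.71 (SE 0.094, edgeR adjusted p = 5.66e-06). The 2 chains of 1 receptor thus moved in opposite directions. JAK1 rose to 250 and 245 CPM in siLMNA cells, against 120 and 141 CPM in siLacZ cells (log2 fold change 0.92, SE 0.078), and IFNAR2, a chain of the type I receptor, rose with a log2 fold change of 0.84 (SE 0.11). For IFNAR2 and IL10RB 83.2% and 38.1% of exon bases lie within other genes, so their counts are uncertain.

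Of 13 tested genes that sense nucleic acids or induce interferon 7 rose (53.8%, against 26.5% of all tested genes) and 4 fell (30.8%, against 27.8%). The adaptors MYD88 (log2 fold change 0.85, SE 0.10) and TICAM1 (0.81, SE 0.087) rose. TLR3, the endosomal receptor of double-stranded RNA that signals through TICAM1, and MB21D1, which encodes the DNA sensor cGAS, fell, TLR3 with a log2 fold change of -0.64 (SE 0.10) and MB21D1 of -0.63 (SE 0.096). Of 13 tested inhibitors and nucleases 3 rose (23.1%, against 26.5% of all tested genes) and 6 fell (46.2%, against 27.8%). SOCS3, a feedback inhibitor of JAK kinases, had 21.0 and 18.2 CPM in siLMNA cells, against 2.80 and 2.71 CPM in siLacZ cells (log2 fold change 2.83, SE 0.13, edgeR adjusted p = 1.24e-11), and SOCS1 rose by 1.56 on the log2 scale (SE 0.28). RNF125, a ubiquitin ligase that targets RIG-I, and RNASEH2A, the catalytic subunit of RNase H2, fell, RNF125 with a log2 fold change of -1.45 (SE 0.15) and RNASEH2A of -1.32 (SE 0.10).

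A further 44 interferon-stimulated genes outside the member list, of which IFI16 also counts among the sensors, gave 24 rises and 9 falls among 42 tested. These shares were 57.1% rising, against 26.5% of all tested genes, and 21.4% falling, against 27.8%. The largest changes among these genes exceeded those of the members. GBP5, a guanylate-binding protein that acts on pathogen vacuoles and inflammasomes, had a log2 fold change of 4.30 (SE 0.36, edgeR adjusted p = 1.66e-08). It had 298 counts over the siLMNA and 16 over the siLacZ libraries. Scaled to library size this is a ratio of 20.0 (95% counting interval 12.1 to 35.4, or 9.95 to 47.5 with halved counts). The interval leaves out the spread between libraries. GBP2, a relative of it, had 125 and 130 CPM in siLMNA cells, against 18.3 and 18.2 CPM in siLacZ cells (log2 fold change 2.80, SE 0.078, edgeR adjusted p = 1.11e-14). TNFSF10, which encodes the death ligand TRAIL, had 62.2 and 55.0 CPM in siLMNA cells, against 7.45 and 5.92 CPM in siLacZ cells (log2 fold change 3.13, SE 0.11, edgeR adjusted p = 2.4e-13). ZC3HAV1, the zinc finger antiviral protein that binds CpG-rich RNA, had 26.5 and 30.2 CPM in siLMNA cells, against 112 and 126 CPM in siLacZ cells (log2 fold change -2.07, SE 0.086, edgeR adjusted p = 2.56e-12). The libraries of the 2 groups stood far apart in all 4 genes.

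**Figure D5:**
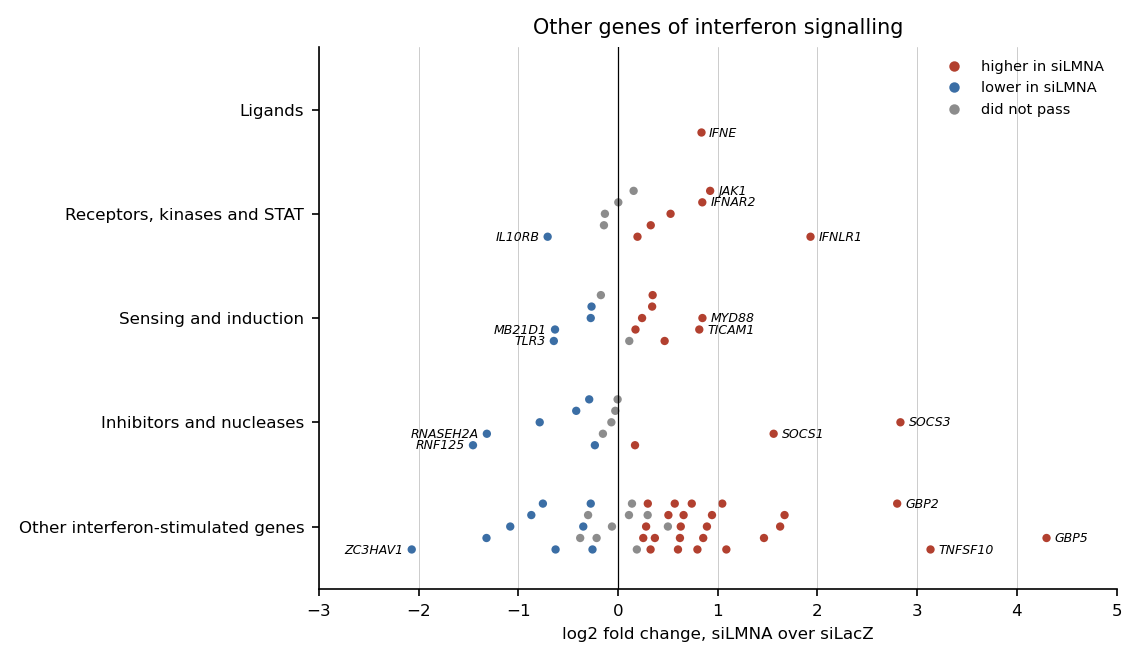
Log2 fold change, siLMNA over siLacZ, of the tested genes of interferon signalling outside the member list, by role, with up to 4 of the largest called changes named per role. GBP5 reaches 4.30 and ZC3HAV1 -2.07.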

How the data were processed

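Raw read counts per gene of 2 siLMNA and 2 siLacZ libraries were taken from 2 tables the authors deposited, each pairing 1 library of each group. Beside the counts stand, per the file headers, normalized counts, a signal, and a log2 fold change with its standard error and test statistic (used as scores) and p-values from an unreplicated comparison. These deposited columns served only to check each row, with a relative tolerance of 1e-06. In 6 genes, none a member, the count contradicted them, and those genes were left out. Columns without a name, 3 in number, were not used. Reads were mapped to hg38, per the submitters' processing notes, while the sources used here give no aligner, counter, annotation or strand setting.

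Counts were tested with edgeR 4.0.16 (R 4.3.3): TMM scaling, filterByExpr, glmQLFit and glmQLFTest over all genes, with Benjamini-Hochberg adjustment at 0.05. Standard errors are the absolute log2 fold change over the square root of F. CPM use TMM-scaled totals, and TPM use exon lengths of GENCODE 29. The procedure was run on simulated counts with few changed genes and the same dispersion for every gene. That run does not cover data in which as many genes change as here. Members and lists were chosen with earlier results of these data known. Members were given in full where they passed with a log2 fold change of at least 0.5 in size, belonged to the transcription factor or ISG15 groups, or changed call under an alternative; of the other lists, every ligand with a count and up to 4 genes per role. Alternatives were RLE and upper-quartile scaling, DESeq2 1.42.0, no filter, a minimum change of 1.5-fold, each library left out, a replicate block, contradicting rows kept and, chosen after seeing the even counts, halved counts. Within a group the 2 libraries were not copies, with a chi-square of 7.04 per degree of freedom for siLMNA and 9.29 for siLacZ. Sequences are from RefSeq, GRCh38.p14.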

Additional observations from a re-analysis of the deposited data

How the results depend on the processing

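With a minimum change of 1.5-fold the members gave 5 rises and 5 falls, the other interferon genes 17 and 6, and all genes 2111 and 1735. When 1 library was left out, members rising ran from 11 to 17 and falling from 5 to 11, other interferon genes rising from 30 to 36 and falling from 12 to 19, and all genes rising from 3182 to 4283 and falling from 3121 to 4696. A replicate block gave 19 and 10 members, and the deviations of same-numbered libraries were uncorrelated (-0.03 over 18540 genes), so the numbers were not taken to pair the samples. Among members the block changed 1 call, that of IFITM1, and other interferon genes gave 38 rises and 19 falls with it. With RLE, upper-quartile scaling, DESeq2, no filter, contradicting rows kept and halved counts, members rising ran from 16 to 19 and falling from 9 to 10. Some members that did not pass changed sign. MX1 had a log2 fold change of 0.0045 with upper-quartile scaling. When 1 library was left out, the log2 fold change ran from -0.23 to 0.13 for MX1, from -5.98 to 0.90 for MX2, from -0.55 to 0.19 for RSAD2, from -0.48 to 0.15 for HERC5, from -0.082 to 0.22 for BST2 and from -0.13 to 0.17 for IFI44. The causes were not tested. Most members under 2 CPM in both groups did not pass, with OAS2 an exception.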
